A study of Mus musculus with 22 samples.

Results

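RNA of 8 genes of the extracellular matrix and its turnover was followed in mouse macrophages: the metalloproteinases Mmp9, Mmp12, Mmp13 and Mmp14, the metalloproteinase inhibitors Timp1 and Timp2, the matrix glycoprotein gene Tnc and the collagen gene Col27a1. They were taken by gene symbol, with earlier results of these data known, and are 8 of the 16059 genes in the expression table. The cells were bone marrow-derived macrophages (BMDMs) of C57/BL6 mice, grown for 7 days with supernatant of L929 cells, a fibroblast line whose medium carries the macrophage growth factor. All groups share this preparation. RNA was sequenced in 5 groups of 2 libraries: control (untreated), LPS (bacterial lipopolysaccharide, 100 ng/ml), LA (L-(+)-lactic acid), LPS+LA and LPS+HCl. Treatment lasted 3 h, and the labels give no time for control. Lactic acid was given at 10 mM with LPS, and the labels do not state its dose alone or the pH it gave. For LPS+HCl, in which acid was added without lactate, they give pH 6.5 as an example, and no group received HCl without LPS. ATAC-seq, which maps open chromatin, was done with 3 samples of each group except LPS+HCl. No label ties a replicate to a culture or animal of its own, and p-values therefore measure only the spread between these libraries, which may be technical.

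Matrix metalloproteinases are zinc-dependent enzymes that cut matrix proteins outside the cell, and the tissue inhibitors of metalloproteinases (TIMPs) bind and block their active sites. Most are made as inactive proenzymes that other proteinases activate, so an RNA level is not an enzyme activity. Macrophages are a known source of several of them in inflamed tissue, and LPS acts on these cells through a Toll-like receptor that switches on NF-kB and AP-1 transcription factors.

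The 8 genes lie on 6 chromosomes of GRCm38.p6, by the RefSeq gene table. Mmp13 (chr9:7272514-7283333) and Mmp12 (chr9:7344397-7360461) are neighbours in the genome with 61.1 kb between them. Col27a1 (chr4:63214009-63334991) and Tnc (chr4:63959785-64047015) lie 625 kb apart. The others are Mmp9 (chr2:164940326-164955850), Mmp14 (chr14:54431598-54442456), Timp1 (chrX:20870166-20874737) and Timp2 (chr11:118301061-118355411). RefSeq promoter entries of the same build matched 7 of the 8 genes; Mmp9 was the exception.

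The 250 bases before the transcription start are shown for Tnc, Mmp13 and Col27a1, the genes with the largest LPS responses of the 8, written 5′ to 3′ on the strand of the gene. They cover chr4:64047016-64047265 (Tnc, minus strand, the outer of 2 start sites), chr9:7272264-7272513 (Mmp13, plus strand) and chr4:63215162-63215411 (Col27a1, plus strand). The Col27a1 window precedes the start of its promoter entry and lies inside the gene bounds given above, from whose outer end the ATAC distances are counted. Capitals mark matches to the AP-1 motif TGANTCA, to TATAAA and to the NF-kB motif, each searched on both strands.
Tnc: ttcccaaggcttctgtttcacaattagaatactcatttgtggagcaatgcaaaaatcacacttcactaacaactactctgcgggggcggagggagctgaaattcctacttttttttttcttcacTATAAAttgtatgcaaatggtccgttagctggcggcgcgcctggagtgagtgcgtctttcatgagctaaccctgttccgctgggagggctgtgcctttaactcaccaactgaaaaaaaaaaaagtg
Mmp13: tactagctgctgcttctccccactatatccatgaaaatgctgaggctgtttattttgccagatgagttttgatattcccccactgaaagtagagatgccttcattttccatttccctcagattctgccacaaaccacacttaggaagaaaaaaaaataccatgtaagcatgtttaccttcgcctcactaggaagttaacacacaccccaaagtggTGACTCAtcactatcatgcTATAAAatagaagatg
Col27a1: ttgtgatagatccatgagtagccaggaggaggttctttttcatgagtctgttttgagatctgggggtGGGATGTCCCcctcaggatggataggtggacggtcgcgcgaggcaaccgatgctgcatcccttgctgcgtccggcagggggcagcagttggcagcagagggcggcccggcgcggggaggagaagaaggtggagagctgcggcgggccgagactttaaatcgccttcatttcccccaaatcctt
The Mmp13 promoter held an AP-1 match whose first base lay 35 bases before the start and a TATAAA match 16 bases before it. In the Col27a1 promoter the match was to NF-kB, 183 bases before the start, and in the Tnc promoter to TATAAA, 126 bases before the start. Over 32851 promoter windows of this length, 6.75% held the AP-1 motif, 7.25% the NF-kB motif and 12.4% TATAAA. A match describes these letters and is not evidence of binding.

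Library totals ran from 18668648 to 20219888 counts. Levels are given as CPM, counts scaled to library size with TMM factors, which equalise libraries on the bulk of their genes, as mean ± SD with n = 2. TMM factors ran from 0.759 in an LPS library to 1.27 in a control library. Scaling by total count instead moved the median log2 fold change of all 12213 tested genes by -0.72 for LPS against control, by 0.40 for LPS+LA against LPS and by 0.24 for LPS+HCl against LPS. All 8 genes passed the filter on low counts. A difference is called where edgeR's quasi-likelihood test gave an adjusted p (Benjamini-Hochberg over 12213 genes) under 0.05. Macrophage markers (10 of 10 present) summed to 14976 to 21507 CPM. Transcripts of neurons, a sum of 10 markers, stood out in control replicate 1 (23.5 CPM) and LPS+HCl replicate 2 (38.1 CPM), against at most 7.18 CPM elsewhere. Leaving both libraries out changed the call or the sign of 0 values of the 8 genes.

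LPS raised the RNA of 3 of the 4 metalloproteinases, both matrix protein genes and Timp1, and lowered Timp2. Tnc rose 297-fold, Mmp13 178-fold and Col27a1 111-fold. Because the genes were chosen with earlier results of these data known, the shares here and below describe the 8 genes only. They are no test of matrix genes as a class. Called members were 6 of 8 higher, where 32.4% of all tested genes were called higher, and 1 of 8 lower, where 32.4% were called lower. With total-count scaling the same counts of 6 and 1 stood against 14.4% higher and 67.9% lower. The median log2 fold change was 3.15 over the 8 genes and -0.05 over all tested genes, or 2.43 and -0.77 with total-count scaling.

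Mmp13, a collagenase that cleaves fibrillar collagens, had 15.7 and 11.9 CPM in the control libraries and 2409 and 2497 CPM in the LPS libraries. Its mean rose from 13.8 ± 2.67 to 2453 ± 61.8 CPM, a log2 fold change of 7.47 (SE 0.15, edgeR adjusted p = 3.6e-15). Every LPS library stood far above every control library, and the change ranked 92nd from the top among 12213 genes. Mmp14, a membrane-anchored metalloproteinase that activates other proenzymes at the cell surface, had 11.2 and 12.5 CPM in control and 297 and 273 CPM in LPS. That is a log2 fold change of 4.59 (SE 0.11, edgeR adjusted p = 3.8e-21). The groups did not overlap. Mmp12, macrophage elastase, was already abundant in control, with 129 and 111 CPM, and reached 385 and 404 CPM with LPS. Its log2 fold change was 1.72 (SE 0.13, edgeR adjusted p = 8.4e-08), again without overlap.

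Mmp9, the gelatinase often followed in activated macrophages, was close to the limit of counting here. It had 8 and 8 counts in control, 17 and 9 in LPS, 3 and 20 in LA, 3 and 6 in LPS+LA and 2 and 4 in LPS+HCl. No comparison called it. For LPS against control the log2 fold change was 1.38 with a 95% interval from -0.63 to 3.39, so a rise of several fold could not be told from no change at this depth.

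Of the inhibitors, LPS raised Timp1 and lowered Timp2. Timp1 had 1.13 and 1.12 CPM in control and 2.98 and 3.37 CPM in LPS, a log2 fold change of 1.49 (SE 0.28, edgeR adjusted p = 6.1e-05) that rests on 28 to 51 counts a library. With total-count scaling it was 0.77 (edgeR adjusted p = 0.016). Timp2, which also takes part in the activation of proenzymes by Mmp14, had 206 and 206 CPM in control and 160 and 170 CPM in LPS. It fell by 0.32 on the log2 scale (SE 0.07, edgeR adjusted p = 0.00050), or by 1.04 with total-count scaling.

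Both matrix protein genes were nearly silent in control. Tnc encodes tenascin-C, a large glycoprotein of injured tissue that can itself activate Toll-like receptors, and had 7 and 4 counts in control. In the LPS libraries it had 989 and 1079 counts, or 64.1 and 71.3 CPM. The log2 fold change of 8.22 (SE 0.25, edgeR adjusted p = 1.4e-18) ranked 67th from the top. Col27a1, a fibrillar collagen chain best known from cartilage, went from 9 and 6 counts to 565 and 484 counts. Its log2 fold change was 6.80 (SE 0.28, edgeR adjusted p = 2.0e-16), the 111th from the top.

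**Figure D1:**
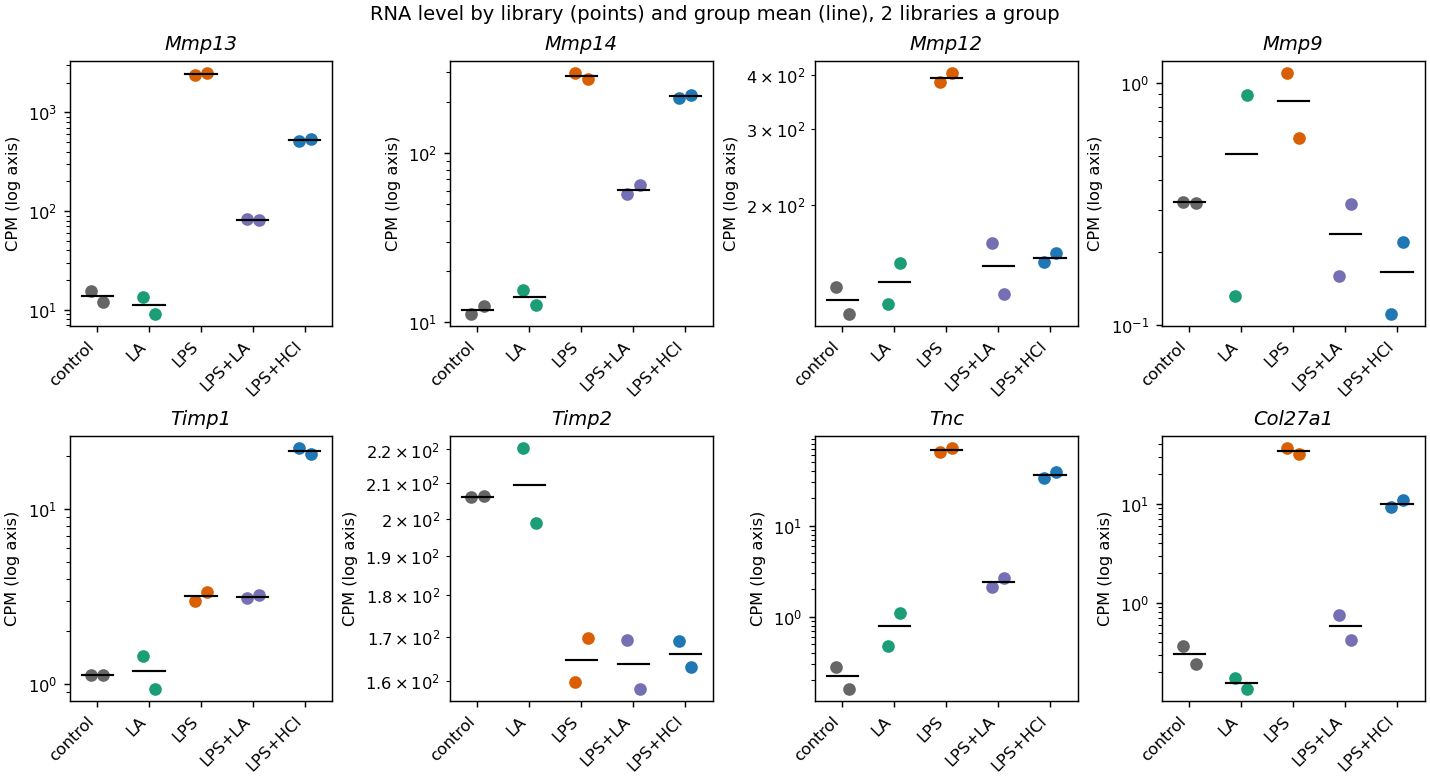
RNA level of the 8 genes in each of the 10 libraries (points) with the group mean (line), in TMM-scaled CPM on log axes that differ between panels; 2 libraries a group. Mmp13, Mmp14, Mmp12, Tnc and Col27a1 are highest with LPS alone, Timp1 is highest with LPS+HCl at 20.7 and 22.1 CPM, Timp2 spans only 158 to 220.4 CPM over all libraries, and Mmp9 stays near or under 1 CPM.

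Lactic acid given with LPS lowered the same 5 genes that LPS raised most: Mmp13, Mmp14, Mmp12, Tnc and Col27a1. Timp1, Timp2 and Mmp9 were not called. Called members were 5 of 8 lower, where 29.7% of all tested genes were called lower, and 0 higher, where 29.2% were. At an unadjusted p under 0.05 in edgeR 0 were higher, and by DESeq2 0. With total-count scaling 5 were lower, against 16.6% of all genes, and 1, Timp2, was higher, against 50.8%. The median was -2.02 over the 8 genes and 0.03 over all tested genes, or -1.62 and 0.43 with total-count scaling. This comparison shares the LPS libraries with the one above.

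Col27a1 had 14 and 8 counts in LPS+LA, against 565 and 484 in LPS. That left 0.59 ± 0.23 CPM, or 1.71% of the LPS mean, a log2 fold change of -5.86 (SE 0.26, edgeR adjusted p = 3.7e-15). It was the 43rd largest fall among 12213 genes. Mmp13 had 82.4 and 81.5 CPM in LPS+LA. It kept 3.34% of its LPS mean (log2 fold change -4.90, SE 0.13, edgeR adjusted p = 1.9e-13) and was the 66th largest fall. Tnc had 2.14 and 2.69 CPM in LPS+LA. It kept 3.57% (log2 fold change -4.81, SE 0.19, edgeR adjusted p = 4.1e-16) and was the 68th. In none of these 3 genes did the LPS and LPS+LA libraries overlap.

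Mmp14 and Mmp12 kept more of their LPS level. Mmp14 had 57.3 and 64.4 CPM in LPS+LA, 21.3% of the LPS mean, and fell by 2.23 on the log2 scale (SE 0.09, edgeR adjusted p = 7.6e-16). Mmp12 had 163 and 124 CPM, 36.4% of the LPS mean, with a log2 fold change of -1.46 (SE 0.13, edgeR adjusted p = 5.8e-07). Both genes were lower in every LPS+LA library than in every LPS library. The Mmp12 libraries with LPS+LA overlapped those with LA alone, at 118 and 146 CPM, and the log2 difference between these groups was 0.12 with a 95% interval from -0.16 to 0.40.

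Timp1 had 3.10 and 3.21 CPM in LPS+LA, inside the range of the LPS libraries, with a log2 difference of -0.01 and a 95% interval from -0.53 to 0.52. Timp2 had 169 and 158 CPM, a log2 difference of -0.01 with an interval from -0.16 to 0.14. With total-count scaling the Timp2 difference was 0.39 (edgeR adjusted p = 4.4e-05), so the call on Timp2 depends on the scaling.

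**Figure D2:**
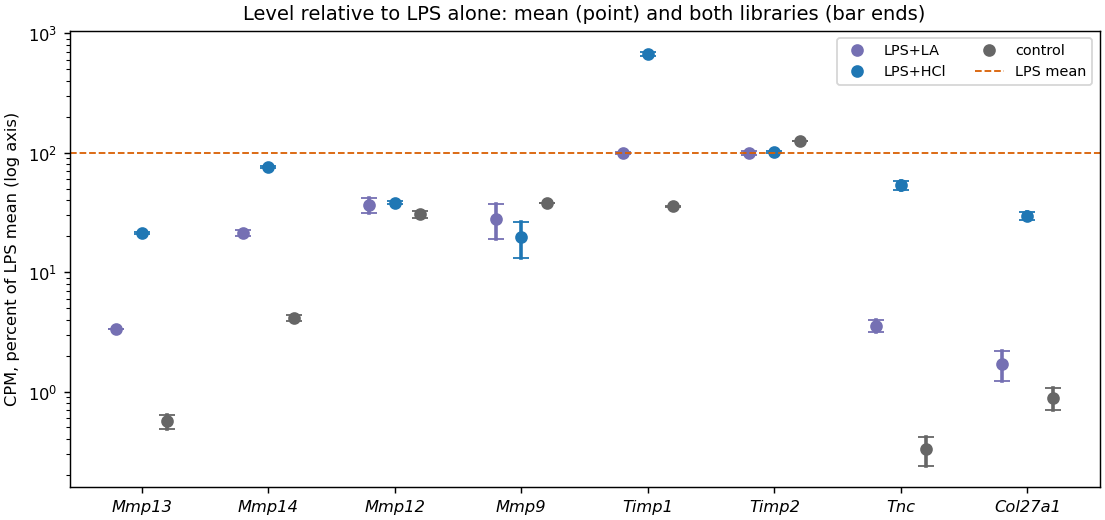
Level of each gene in LPS+LA, LPS+HCl and control as a percent of its mean with LPS alone (dashed line at 100), on a log axis; points are means of 2 libraries and bars join the 2 libraries. LPS+LA lies below LPS+HCl for Mmp13, Mmp14, Tnc, Col27a1 and Timp1, and both lie together for Mmp12 and Timp2.

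Acid without lactate lowered the same 5 genes, Mmp13, Mmp14, Mmp12, Tnc and Col27a1, and raised Timp1. Against LPS alone, LPS+HCl had 5 of 8 members lower, where 20.8% of tested genes were called lower, and 1 of 8 higher, where 18% were called higher. With total-count scaling 4 were lower, against 10.7% of all genes, and 2 higher, against 37.1%. The median was -1.15 over the 8 genes and 0.01 over all tested genes, or -0.91 and 0.25 with total-count scaling.

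Mmp13 had 510.4 and 533 CPM in LPS+HCl, 21.3% of the LPS mean, a log2 fold change of -2.23 (SE 0.11, edgeR adjusted p = 1.3e-09). Col27a1 had 9.29 and 10.9 CPM, 29.4% of the LPS mean (log2 fold change -1.77, SE 0.18, edgeR adjusted p = 3.3e-08). Mmp12 had 147 and 154 CPM, 38.2% (log2 fold change -1.39, SE 0.13, edgeR adjusted p = 2.2e-06). These 3 genes lost most of their LPS level. Tnc had 33.2 and 39.0 CPM and kept 53.3% (log2 fold change -0.91, SE 0.14, edgeR adjusted p = 1.0e-05). Mmp14, at 212 and 221 CPM, kept 75.9% (log2 fold change -0.40, SE 0.08, edgeR adjusted p = 0.00059). The call on Mmp14 was lost with total-count scaling, where its log2 fold change was -0.16 (edgeR adjusted p = 0.12).

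Timp1 went the other way. It had 398 and 374 counts in LPS+HCl, against 46 and 51 in LPS, and reached 21.4 ± 1.05 CPM. That was a log2 fold change of 2.75 (SE 0.23, edgeR adjusted p = 8.1e-10), and no library of another group came near it: the highest elsewhere held 3.37 CPM. Timp2 had 169 and 163 CPM, a log2 difference of 0.01 with a 95% interval from -0.14 to 0.17. It was 0.25 with total-count scaling (edgeR adjusted p = 0.0064).

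The direct comparison of LPS+LA with LPS+HCl placed 5 of 8 members lower with lactic acid, where 22.5% of tested genes were called lower, and 0 higher, where 18.4% were (0 also at an unadjusted p under 0.05 in edgeR, and 0 by DESeq2). With total-count scaling the counts were again 5 and 0, against 15.5% lower and 32.3% higher. Col27a1 differed by -4.10 (SE 0.28, edgeR adjusted p = 3.3e-11), Tnc by -3.90 (SE 0.19, edgeR adjusted p = 1.4e-13) and Mmp13 by -2.67 (SE 0.12, edgeR adjusted p = 2.8e-10). Mmp14 differed by -1.83 (SE 0.09, edgeR adjusted p = 1.5e-13). For Timp1 the difference was -2.76 (SE 0.22, edgeR adjusted p = 4.8e-10). Mmp12 was the exception among the genes that LPS raised, since its LPS+LA libraries enclosed its LPS+HCl libraries (log2 difference -0.07, 95% interval -0.35 to 0.21). The log2 difference of Timp2 was -0.02 (interval -0.17 to 0.13). Since the pH of the LPS+LA cultures is not stated, lactate and the degree of acidity cannot be told apart here.

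**Figure D3:**
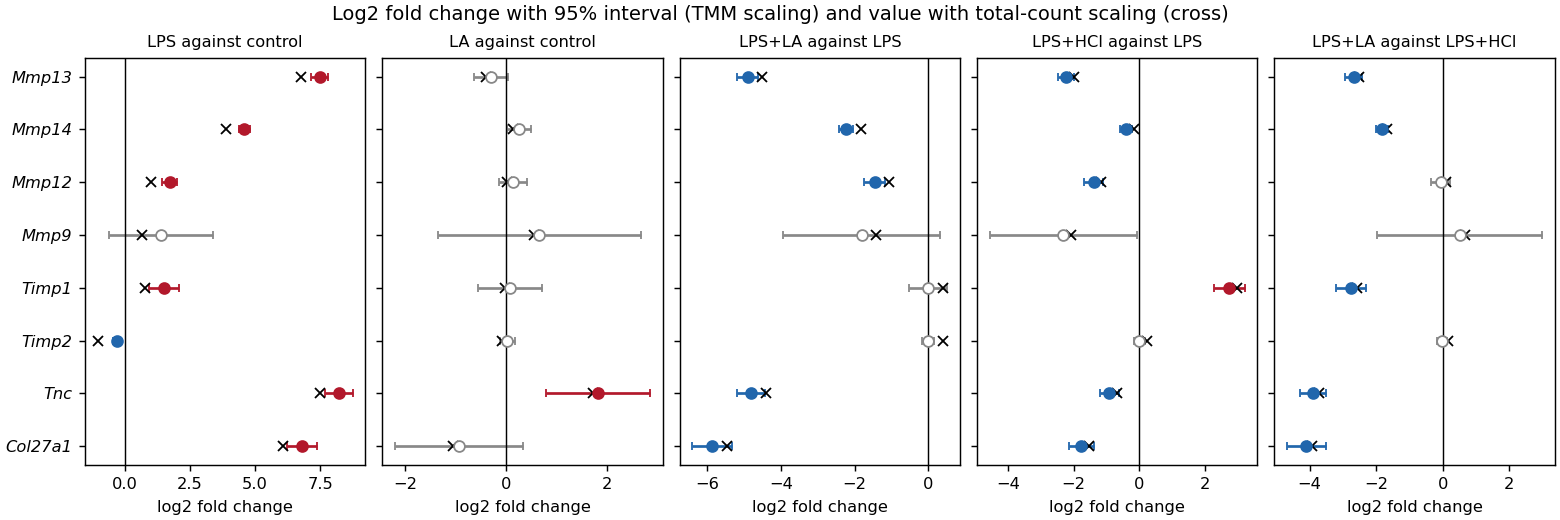
Log2 fold change of the 8 genes in 5 comparisons with TMM scaling and 95% interval; filled red points were called higher, filled blue lower and open grey points were not called, and a cross gives the value with total-count scaling. Horizontal scales differ between panels. Mmp13, Tnc and Col27a1 have the largest changes with LPS and with LPS+LA, and Mmp9 has the widest intervals.

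Lactic acid alone raised Tnc, and the other 7 genes were not called. Thus 1 of 8 members was higher, where 20.4% of tested genes were called higher, and 0 were lower, where 17.9% were (0 also at an unadjusted p under 0.05 in edgeR, and 0 by DESeq2). With total-count scaling the counts were again 1 and 0, against 14.1% higher and 25.1% lower. Tnc had 7 and 4 counts in control and 11 and 25 in LA, a log2 fold change of 1.82 (SE 0.50, edgeR adjusted p = 0.0057). That call was lost in 3 alternatives: the log2 fold change was 1.10 without LA replicate 2 (edgeR adjusted p = 0.19), 1.47 without control replicate 2 (edgeR adjusted p = 0.061) and 1.81 in a fit of only these 4 libraries (edgeR adjusted p = 0.062). With single libraries left out it ran from 1.10 to 2.30. Mmp13 had 13.4 and 9.06 CPM in LA (log2 difference -0.29, 95% interval -0.63 to 0.04). It was called lower without LA replicate 1 (-0.61), without control replicate 2 (-0.48) and without the low-count filter (-0.30). Mmp14 had 15.6 and 12.6 CPM (log2 difference 0.25, interval 0.01 to 0.49) and was called higher only without LA replicate 2 (0.40). Timp1, Timp2, Mmp12 and Mmp9 libraries overlapped between LA and control. Col27a1 had 4 and 3 counts in LA, too few to show a change.

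Whether lactic acid acted differently with LPS than without it was tested as an interaction, the LPS response with LA minus the LPS response without it. This term and the comparison of LPS+LA with LA take the dose of LA alone as that of LPS+LA, which the labels do not state. The interaction was called lower for 5 of 8 members, where 23.9% of tested genes were, or, with total-count scaling, for 5 where 10.6% were. The values were -6.62 for Tnc (SE 0.54), -4.93 for Col27a1 (SE 0.88), -4.61 for Mmp13 (SE 0.20), -2.48 for Mmp14 (SE 0.15) and -1.59 for Mmp12 (SE 0.18). Among 12213 genes, that of Tnc was the 30th lowest. Of the 8, 0 were called higher, where 20.4% were (0 also at an unadjusted p under 0.05 in edgeR, and 0 by DESeq2). With total-count scaling 1 was, Timp2 (0.48), where 48.4% were. The value of Tnc was -5.91 without LA replicate 2.

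A response to LPS remained in lactic acid for most of the genes. LPS+LA against LA had 5 of 8 members higher, where 15.9% of tested genes were, and 1 lower, where 14.6% were. With total-count scaling the counts were again 5 and 1, against 10.6% higher and 34.9% lower. Mmp13 was higher by 2.87 (SE 0.14), Mmp14 by 2.11 (SE 0.10), Tnc by 1.59 (SE 0.31) and Timp1 by 1.40 (SE 0.27). The value of Tnc was 2.31 without LA replicate 2. Timp2 was lower, with a log2 fold change of -0.36 (SE 0.07). Col27a1 was higher by 1.87 (SE 0.56, edgeR adjusted p = 0.013), but on 14 and 8 against 4 and 3 counts, and the call was lost without LA replicate 2 (1.70, edgeR adjusted p = 0.076) or LPS+LA replicate 1 (1.42, edgeR adjusted p = 0.16).

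Between genes, levels can be compared only per length, for which the deposited FPKM values, scaled to gene length and library depth, were used. In control, Mmp12 (86.4 ± 9.55 FPKM) and Timp2 (72.9 ± 0.84) were the most abundant of the 8, with SDs that set them apart from Mmp13 (6.67 ± 1.36) and Mmp14 (3.98 ± 0.25). Timp1 had 1.75 FPKM, Mmp9 0.13, Col27a1 0.06 and Tnc 0.045. With LPS, Mmp13 took the first place at 721 ± 14.2 FPKM, ahead of Mmp12 (173 ± 4.34), Mmp14 (58.4 ± 3.76) and Timp2 (35.4 ± 1.31). Tnc reached 7.33 ± 0.54, Col27a1 4.59 ± 0.58 and Timp1 3.02 ± 0.24. In LPS+LA the order was again led by Mmp12 (82.7 ± 15.6), with Timp2 (46.4 ± 1.88) and Mmp13 (31.7 ± 0.03) next. In LPS+HCl Mmp13 led at 180 ± 7.53 FPKM, and Timp1, at 23.8 ± 0.93, stood above Tnc (4.58 ± 0.59) and Col27a1 (1.48 ± 0.08).

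Within each gene, the groups fell into an order by mean CPM. For Mmp13, Mmp14, Tnc and Col27a1 it ran from LPS through LPS+HCl and LPS+LA down to control and LA, and the steps from LPS to LPS+HCl to LPS+LA to LA were called. Control and LA libraries overlapped for Mmp13, and the difference between them was not called for Mmp14 and Col27a1. For Mmp12 only LPS stood apart, and each neighbour below it in the order LPS+HCl, LPS+LA, LA, control overlapped the next or was not called. Timp1 ran from LPS+HCl to a pair of LPS and LPS+LA and then to a pair of LA and control. Timp2 had LA and control together above LPS+HCl, LPS and LPS+LA.

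By a rule of likeness, the root mean square difference between the log2 CPM profiles of group means, each centred on its own mean, the nearest of 8237 genes with at least 10 CPM on average were named. This is a description over 5 group means. Col27a1 was nearest to Vcan (versican, a large matrix proteoglycan; difference 0.15), and Tnc to Cfb (complement factor B; 0.25), with Mmp25 the third nearest (0.48). Mmp13 was nearest to Ifit1bl1 (0.30), then Hdc and Gbp6. Mmp14 was nearest to Exoc3l4 (0.13), Mmp12 to Lap3 (0.058), Timp2 to Ddx19a (0.014) and Timp1 to Il4ra (0.49). Mmp9 had at most 20 counts in any library, and its nearest gene is not named.

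The other genes of matrix turnover were read from lists by function, whose medians are log2 fold changes with TMM scaling. The lists too were chosen with earlier results of these data known. Their counts stand against 32.4% of all tested genes higher and 32.4% lower with LPS (14.4% and 67.9% with total-count scaling). For LPS+LA against LPS the shares were 29.2% higher and 29.7% lower (50.8% and 16.6%). Other metalloproteinases were mostly low: of 19 listed, 15 were in the table and 9 could be tested. LPS raised 3 and lowered 1 of them (4 with total-count scaling), with a median log2 fold change of -0.29. The median over all genes was -0.05, and for LPS+LA against LPS it was -0.50 in the list and 0.03 over all genes. Mmp25, a membrane-bound metalloproteinase of leukocytes, went from 1.01 to 70.7 CPM (log2 fold change 6.13, SE 0.17), Mmp10 from 0.34 to 6.09 CPM (4.13, SE 0.49) and Mmp28 from 1.33 to 6.60 CPM (2.31, SE 0.40). Mmp19 fell from 14.1 to 5.82 CPM (-1.28, SE 0.17). LPS+LA against LPS had 3 lower and 3 higher (4 with total-count scaling). Mmp25 was lower by -3.83 (SE 0.14), Mmp28 by -2.34 (SE 0.41) and Mmp10 by -1.88 (SE 0.42), while Mmp19 was higher by 1.47 (SE 0.17). Without LPS+LA replicate 2 the value of Mmp28 was -3.03. In LPS+HCl, Mmp25 was lower (-1.04, SE 0.12) and Mmp19 higher (1.81, SE 0.17). Each was the 1 gene of the list called in that direction, and 2 were higher with total-count scaling. Over all tested genes 20.8% were lower and 18% higher, or 10.7% and 37.1% with total-count scaling.

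ADAM and ADAMTS proteinases, which shed surface proteins or cut proteoglycans, numbered 11 tested. LPS raised 6 and lowered 2, or 4 and 6 with total-count scaling, with a median of 0.54. Adamts4, an aggrecanase, went from 0.16 to 317 CPM (log2 fold change 10.89, SE 0.18), and Adam17, the sheddase of TNF, from 219 to 617 CPM (1.49, SE 0.07). With LPS+LA both were lower than with LPS, by -1.64 (SE 0.09) and -1.16 (SE 0.07), and Adamts4 still held 102 CPM. LPS+HCl also lowered both, by -0.47 (SE 0.08) and -0.82 (SE 0.07). Over the list, LPS+LA had 3 higher and 5 lower, which total-count scaling turned to 7 and 3, and a median of -0.10.

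Genes of proteins that activate proenzymes, mainly the plasmin system and furin-like convertases, did not all move in the same direction with LPS. LPS raised 4 of the 5 tested and lowered 1, with a median of 2.08. Plau, urokinase, fell from 275 to 33.2 CPM (log2 fold change -3.05, SE 0.08) and its receptor gene Plaur rose from 61.5 to 489 CPM (2.99, SE 0.08). Furin rose from 197 to 835 CPM (2.08, SE 0.06). In LPS+LA, Plau was higher than in LPS by 2.91 (SE 0.08), at 250 CPM, and Plaur lower by -1.38 (SE 0.07). LPS+LA had 1 of the list higher and 3 lower, or 3 and 2 with total-count scaling, and a median of -0.24. LPS+HCl gave 87.3 CPM of Plau (1.40, SE 0.08) and raised Furin (0.68, SE 0.06). Lactic acid alone raised 4 of the 5 with either scaling, where 20.4% of all tested genes were higher (14.1% with total-count scaling). Among them were Plaur (1.28, SE 0.08), Plau (0.88, SE 0.07) and Furin (0.87, SE 0.06).

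Other proteinase inhibitors numbered 9 tested, of which LPS raised 5 and lowered 1 (2 and 6 with total-count scaling), with a median of 0.32. LPS+LA against LPS had 1 higher and 3 lower (6 and 2 with total-count scaling), with a median of -0.05, where 29.2% of all genes were higher and 29.7% lower (50.8% and 16.6% with total-count scaling). Of 9 cathepsins, LPS raised 5 and lowered 0 (median 0.19), but with total-count scaling 1 and 6. Ctsc, which activates serine proteinases of granules, rose from 349 to 1469.95 CPM (2.07, SE 0.07) and was lower in LPS+LA (-1.28, SE 0.07). Over the 9 cathepsins, LPS+LA against LPS had 3 higher and 3 lower, with a median of -0.05. With total-count scaling 6 were higher and 1 lower.

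**Figure D4:**
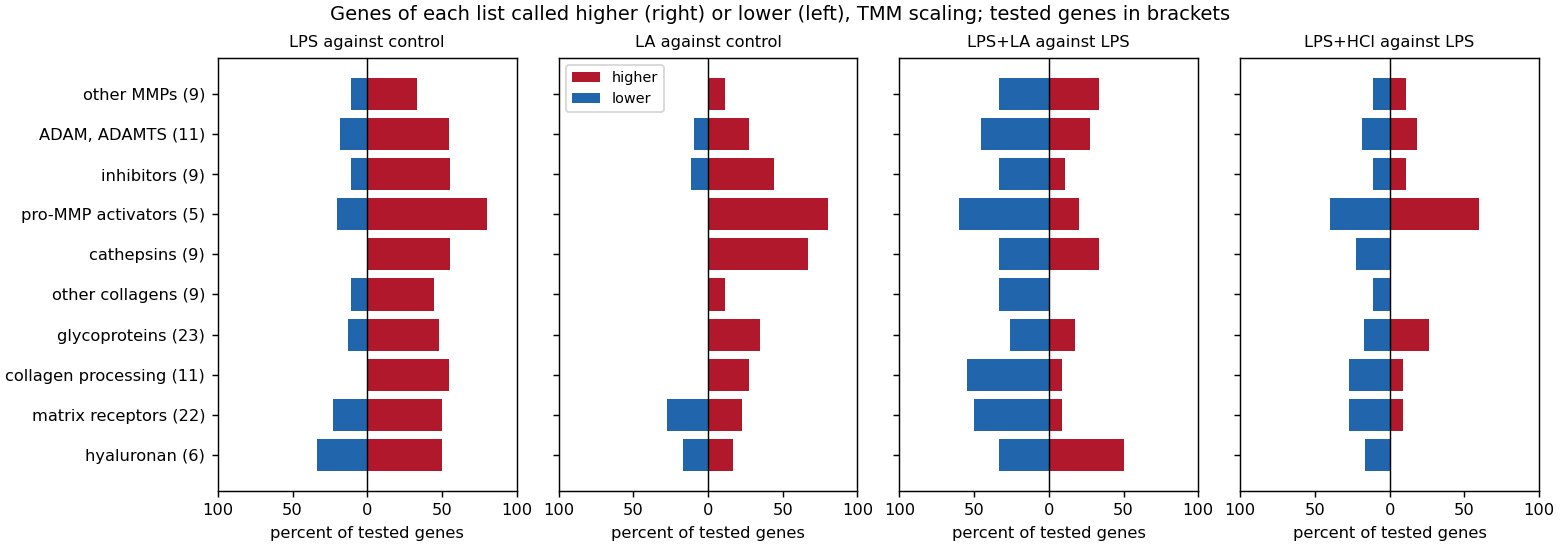
Share of the tested genes of each list that was called higher (right, red) or lower (left, blue) in 4 comparisons, with TMM scaling and the number of tested genes in brackets. LPS raised more genes than it lowered in each list. LPS+LA against LPS had more genes lower than higher in each list except other metalloproteinases, cathepsins and hyaluronan genes. With total-count scaling that held only for collagen-processing and matrix-receptor genes. With total-count scaling more genes were lower than higher with LPS in 6 of the 10 lists.

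Matrix proteins other than Tnc and Col27a1 showed no uniform direction. Of 26 other collagen genes listed, 25 were in the table and 9 passed the low-count filter. LPS raised 4 and lowered 1 (2 and 1 with total-count scaling), with a median of 0.66. Col11a2, a fibrillar chain of cartilage like Col27a1, rose from 1.49 to 15.7 CPM (log2 fold change 3.39, SE 0.24) and was lower in LPS+LA (-1.97, SE 0.22). LPS+LA lowered 3 of the 9 and raised 0, but with total-count scaling lowered 1 and raised 1, with a median of -0.20. Over all genes 29.7% were lower and 29.2% higher, or 16.6% and 50.8% with total-count scaling. Glycoproteins and proteoglycans numbered 23 tested, with 11 higher and 3 lower in LPS, or 9 and 11 with total-count scaling, and a median of 0.46. Tnn, another tenascin, rose from 0.36 to 70.8 CPM (7.59, SE 0.18) and held 34.3 CPM in LPS+LA (-1.05, SE 0.10). Vcan rose from 0.97 to 78.0 CPM (6.33, SE 0.40) and fell to 1.43 CPM in LPS+LA (-5.76, SE 0.39) and 20.6 CPM in LPS+HCl (-1.92, SE 0.28). For LPS+LA against LPS the value of Vcan was -5.13 without LPS+LA replicate 1 and -6.91 without LPS+LA replicate 2. Thbs1, thrombospondin, followed another course: lactic acid alone raised it from 23.6 to 243 CPM (3.36, SE 0.10), and it was higher in LPS+LA than in LPS (1.63, SE 0.11). LPS+LA against LPS had 4 of the 23 higher and 6 lower, or 10 and 4 with total-count scaling, and a median of 0.03.

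Collagen-processing enzymes, the hydroxylases, crosslinkers and propeptide-cutting proteinases, numbered 11 tested, and LPS raised 6 and lowered 0 (3 with total-count scaling), with a median of 1.08. Lox, lysyl oxidase, rose from 0.22 to 18.6 CPM (log2 fold change 6.35, SE 0.59) and Bmp1, the procollagen proteinase, from 0.28 to 8.31 CPM (4.85, SE 0.42). LPS+LA lowered 6 of the 11 and raised 1 (6 and 3 with total-count scaling; median -0.71). Among those lower were Lox (-4.16, SE 0.49), Bmp1 (-2.00, SE 0.34) and P4ha1, a collagen prolyl hydroxylase (-0.98, SE 0.08). LPS+HCl left 1.44 CPM of Lox (-3.68, SE 0.47), beside 1.03 CPM in LPS+LA. The value of Lox was -4.84 for LPS+LA without LPS+LA replicate 2, and -4.67 for LPS+HCl without LPS+HCl replicate 2, a library with neuronal transcripts.

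Receptors for matrix proteins numbered 22 tested. LPS raised 11 and lowered 5, or 8 and 10 with total-count scaling, and a median of 0.20, where 32.4% of all genes were higher and 32.4% lower (14.4% and 67.9% with total-count scaling). Sdc4, a syndecan, rose by 4.04 (SE 0.08), Itgav, the integrin alpha V subunit, by 2.71 (SE 0.07) and Cd44, the hyaluronan receptor, by 1.96 (SE 0.07). LPS+LA lowered 11 and raised 2, or 8 and 6 with total-count scaling, and a median of -0.27, where 29.7% of all genes were lower and 29.2% higher (16.6% and 50.8%). Itgb8, an integrin beta subunit that can pair with alpha V, went from 24.2 to 1.86 CPM (-3.70, SE 0.23). Itga4 went from 1254 to 306 CPM (-2.04, SE 0.12) and Itgav from 977 to 470 CPM (-1.06, SE 0.07). Cd44 went from 1966 to 1121 CPM (-0.81, SE 0.06). Of 6 tested genes of hyaluronan metabolism, LPS raised 3 and lowered 2 (median 1.83), and LPS+LA raised 3 and lowered 2 (median 0.46). Cemip2, a membrane protein linked to hyaluronan breakdown, rose from 12.9 to 257 CPM (4.32, SE 0.10) and was lower in LPS+LA (-1.18, SE 0.09), while the hyaluronidase gene Hyal1 fell from 16.4 to 2.69 CPM (-2.61, SE 0.26) and was higher in LPS+LA (1.39, SE 0.27).

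Markers of other cell types were summed in each library. In bulk RNA, fewer cells of a type and less RNA per cell cannot be told apart. Of 10 fibroblast markers, 8 stayed under 1 CPM in every library, Col1a1, Col1a2 and Col3a1 among them. Their sum was 5.01 to 6.02 CPM in control, 5.98 to 7.82 in LA, 13.9 to 17.2 in LPS, 4.12 to 5.37 in LPS+LA and 7.18 to 8.06 in LPS+HCl. The sum was highest in LPS, as were Tnc and Col27a1. Its rise with LPS was mostly in Pdgfrb, with 10.3 CPM in LPS against 0.20 in control. Pdgfrb had 0 CPM in LA, 0.24 in LPS+LA and 1.58 in LPS+HCl. Cdh11, the other marker over 1 CPM, had 4.83 CPM in control, 6.53 in LA and 4.47 in LPS. It had 4.14 CPM in LPS+LA and 4.80 in LPS+HCl. All 5 chondrocyte markers were under 1 CPM in every library, with sums of 0.20 to 0.93 CPM. Of 9 neutrophil markers in the table, 5 were under 1 CPM in every library. The sum was 7.28 to 7.78 CPM in control, 7.29 to 9.87 in LA and 5.64 to 6.08 in LPS. It was 11.4 to 12.8 CPM in LPS+LA and 6.63 to 7.90 in LPS+HCl. Most of it was Mmp8, with 4.56 CPM in LPS and 7.92 in LPS+LA, a gene also counted among the other metalloproteinases. Endothelial markers summed to 71.6 to 71.8 CPM in LPS and 9.38 to 9.86 in control, mostly as Kdr at 67.2 and 7.85 CPM, and to 14.6 to 14.7 CPM in LPS+LA and 27.0 to 28.2 in LPS+HCl. Dendritic cell markers summed to 0.97 to 1.84 CPM in control, 8.26 to 10.2 in LPS, 6.26 to 8.32 in LPS+LA and 7.35 to 8.29 in LPS+HCl. Osteoclast markers summed to 12.8 to 13.9 CPM in control, 17.3 to 17.6 in LPS, 20.4 to 21.0 in LPS+LA and 23.0 to 23.9 in LPS+HCl. The part of such cells in the results was not tested.

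Open chromatin at the genes was read from peaks called in each ATAC sample, merged into 127890 sites over all samples. Within 10 kb of the 8 genes lay 63 sites, of which 31 had a peak in all 12 samples. Gained means a peak in all 3 samples of the first group of a comparison and in 0 of the second, and lost the reverse. LPS against control gained 11 of the 63, or 17.5%, where 8.27% of all sites were gained, and lost 1, where 2.44% were. With only peaks above the median score of their own sample, 0 were gained, and the share of all sites was not counted for that setting. Peak lists hold no read depth, and a missing peak may be a weak one. Sites are described here without a test.

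The transcription start of Tnc lay in a site (chr4:64046735-64047264) with a peak in 0 of 3 control, 3 of 3 LPS, 0 of 3 LA and 3 of 3 LPS+LA samples, which covers nearly all of the promoter sequence shown. A site centred 44658 bp inside the gene (chr4:64002071-64002642) had the same pattern. Another site, centred 950 bp before the start, had a peak in 3 of 3 LPS+LA samples and in none of the other groups. Both LPS-gained sites of Tnc thus had a peak in every LPS+LA sample, while its RNA in LPS+LA was 3.57% of that in LPS.

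At Col27a1, 7 of 17 sites were present in all 12 samples, among them the one over the promoter shown. LPS gained 4, centred 6937 bp before the gene start and 35020, 63126 and 109606 bp inside it. Of these 4, LPS+LA had a peak in 2, 3, 1 and 3 of 3 samples. The site 26773 bp inside had a peak in control only. Mmp13, with the highest level in LPS, had its start site and a site 2198 bp upstream in all 12 samples and gained none. At Mmp14, 5 of 6 sites were present in all samples, and the other, 3772 bp inside the gene, was absent in control and present in all LPS, LA and LPS+LA samples. The 250-base promoter window of Mmp14 held no peak in any sample. Mmp12 gained a site 3532 bp before its start in LPS, which LA and LPS+LA samples had too. Timp1 and Timp2 had their start sites in all 12 samples, and Timp2 gained 2 sites in LPS, 8452 and 17584 bp inside the gene. Mmp9 gained 1 site within its bounds.

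**Figure D5:**
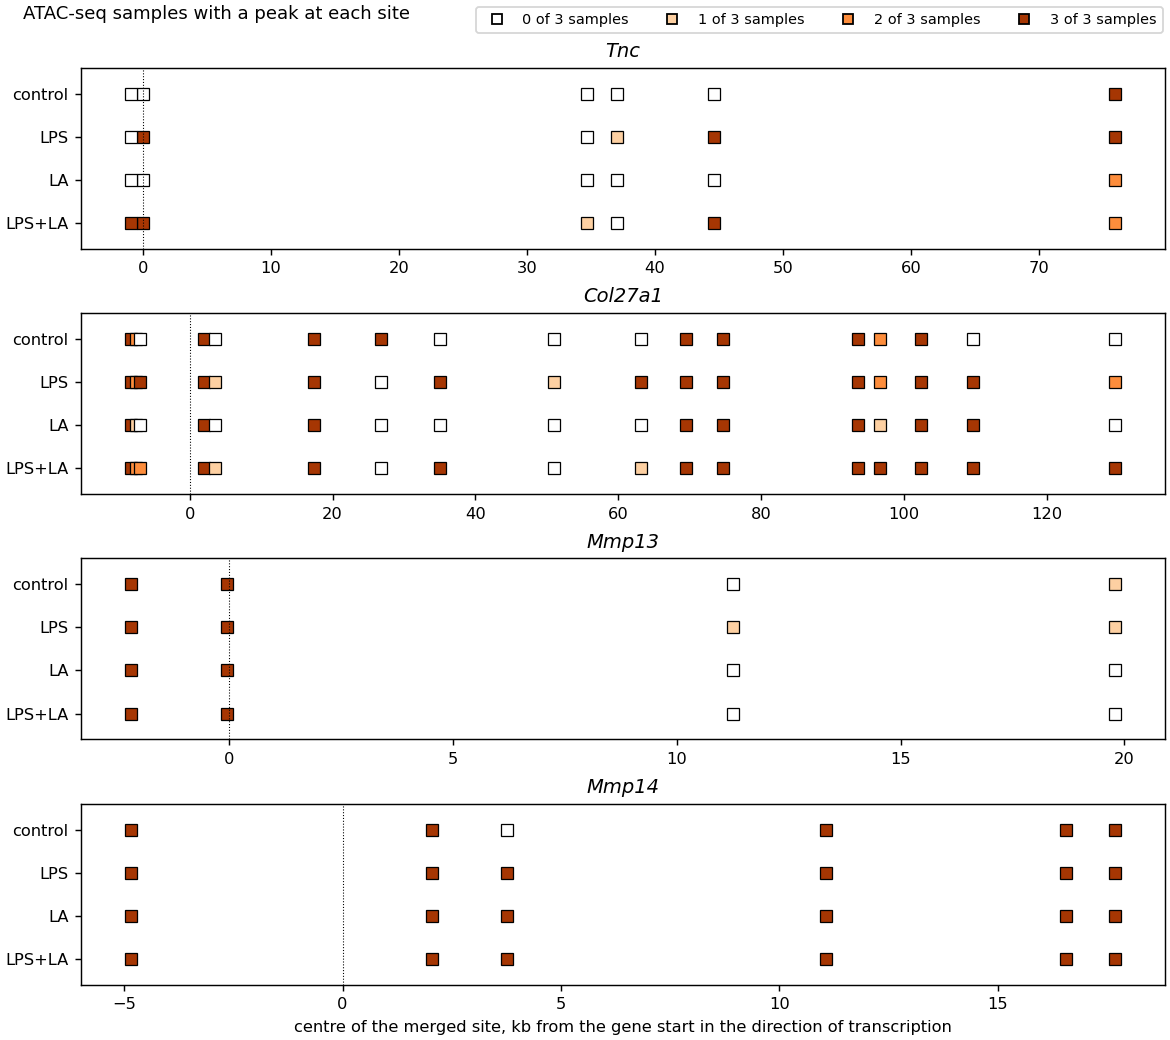
ATAC-seq sites at Tnc, Col27a1, Mmp13 and Mmp14, placed by the distance of their centre from the gene start in kb; the fill gives how many of the 3 samples of a group had a peak. The Tnc start site is filled in LPS and LPS+LA and empty in control and LA, whereas the Mmp13 start site is filled in all 4 groups.

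Lactic acid was set against its absence in samples run on different sequencing lanes. Per the file headers, control and LPS samples came from lane 5 and LA and LPS+LA samples from lane 6, so lactic acid and lane cannot be told apart. LPS+LA against LPS gained 3 of 63 sites (4.76%), where 2.24% of all sites were gained, and lost 1, where 2.29% were. LA against control gained 4, where 1.53% were, and lost 2, where 2.38% were. Within lane 6, LPS+LA against LA gained 6 sites (9.52%), where 6.01% were gained, and lost 0, where 0.483% were. Those 6 included 3 at Tnc, 2 at Col27a1 and 1 at Timp1.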

How the data were processed

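The genes and lists were chosen with earlier results of these data known. For RNA the authors deposited expected counts, FPKM and TPM values per gene and library, per the file headers; HISAT, Bowtie2 and GRCm38.p6 stand in the submitters' processing notes, with a counting tool not given in the sources used here. For the tests these estimated counts, 6.07% of them with a fractional part as deposited, were rounded. FPKM values as deposited served to compare levels between genes, and the deposited TPM values were not tested. For ATAC-seq the authors deposited peaks per sample with a score whose scale is not stated; MACS2 2.0.10, BWA 0.5.9, Picard and mm10 stand in the submitters' processing notes.

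Genes were kept by filterByExpr (minimum count 10, minimum total 15; 12213 of 16059), and all 10 libraries were fitted with 1 term per group in edgeR 4.0.16 (TMM, robust quasi-likelihood test, two-sided, Benjamini-Hochberg, threshold 0.05). Depth was 18668648 to 20219888 counts a library. Genes are named by rule: the 8 genes, up to 4 genes of each list per comparison with the smallest adjusted p, and the 3 nearest profiles per gene, at least 10 CPM on average (pseudocount 0.5 CPM). Marker genes were named where a result turned on them. A gene that the rule names is not reported here. Peaks were merged at 1 bp of overlap, and sites lay within 10 kb of the gene bounds. The edgeR and ATAC steps were tested on simulated data. Alternatives were DESeq2 1.42.0 (Wald test and size factors), total-count scaling, no low-count filter, fits of only the groups compared, a replicate block, leaving out libraries, a peak overlap of 50 bp, only peaks above the median score and a window of 50 kb. Deviations of same-numbered libraries had correlations from -0.12 (LPS with LA) to 0.19 (control with LA) over 10 pairs of groups.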

Additional observations from a re-analysis of the deposited data

Results flagged for a closer look

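In 5 of the 8 genes the effect of lactic acid with LPS differed from its effect without LPS, by the interaction term of edgeR's quasi-likelihood test: Tnc by -6.62 (SE 0.54, adjusted p = 5.7e-10), Col27a1 by -4.93 (SE 0.88, adjusted p = 6.6e-05), Mmp13 by -4.61 (SE 0.20, adjusted p = 1.4e-10), Mmp14 by -2.48 (SE 0.15, adjusted p = 1.9e-12) and Mmp12 by -1.59 (SE 0.18, adjusted p = 1.1e-05). Of all tested genes 23.9% had an interaction called lower. The same 5 genes were called lower for LPS+LA against LPS, where 29.7% of all tested genes were. Both comparisons share the LPS and LPS+LA libraries. The interaction takes the dose of LA alone as that of LPS+LA, which the labels do not state. Without LPS, Col27a1 had only 9 and 6 counts in control and 4 and 3 in LA. Tnc had 7 and 4 counts in control and 11 and 25 in LA. A fall with LA alone could hardly be seen at such counts. The call of Tnc for LA alone was itself lost in some alternatives, as given above.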

How the results depend on the processing

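Of 35 called log2 values of the 8 genes, 32 were called in the same direction under all 17 alternatives; the others are Tnc for LA, Mmp14 for LPS+HCl and Col27a1 for LPS+LA against LA, given above. No paired use of replicate numbers was made; with the replicate block 0 called values changed side, and LPS still raised 6 of the 8 genes. For LA against control the count of higher genes fell from 1 to 0 in the fit of only the groups compared and ran from 0 to 1 with single libraries left out. The count of lower genes went from 0 to 1 without the low-count filter and ran from 0 to 1 with single libraries left out. With total-count scaling, Timp2 made the counts of higher genes 1 for LPS+LA against LPS, 2 for LPS+HCl against LPS and 1 for the interaction. Values that changed sign were all uncalled in the reported fit. With total-count scaling they were, for LA against control, Timp1 -0.025 and Timp2 -0.085; for LPS+LA against LPS, Timp1 0.39 and Timp2 0.39; for LPS+LA against LPS+HCl, Mmp12 0.097 and Timp2 0.15; for LPS+LA against LA, Mmp12 -0.088; and for the interaction, Timp1 0.42 and Timp2 0.48. For LPS+HCl against LPS, Timp2 was -0.0048 with DESeq2's Wald test and -0.0049 with its size factors. With 1 library left out, where the lone library of a group is assumed to vary like the others, sign changes lay in these ranges. For LA against control they were -1.25 to 1.45 for Mmp9, -0.030 to 0.28 for Mmp12, -0.27 to 0.36 for Timp1 and -0.054 to 0.096 for Timp2. For LPS+LA against LPS they were -0.086 to 0.090 for Timp1 and -0.051 to 0.041 for Timp2, and for LPS+HCl against LPS -0.038 to 0.047 for Timp2. For LPS+LA against LPS+HCl they were -0.048 to 1.06 for Mmp9, -0.26 to 0.11 for Mmp12 and -0.055 to 0.027 for Timp2. For LPS+LA against LA they were -1.88 to 0.83 for Mmp9 and -0.074 to 0.31 for Mmp12, and for the interaction -0.37 to 0.26 for Timp1 and -0.11 to 0.043 for Timp2.

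Counts of ATAC sites depended on the peak score and the window. With only peaks above the median score, LPS gained 0 and lost 0, LA gained 0 and lost 0, LPS+LA against LPS lost 0 and LPS+LA against LA gained 3. With a window of 50 kb, LPS gained 18 and lost 2, LA lost 4, LPS+LA against LPS gained 5 and lost 4, and LPS+LA against LA gained 13 and lost 1. The number of sites at the genes under either setting was not counted, so these counts cannot be read as shares. With single samples left out, sites lost with LPS ran from 1 to 2 (2 without control replicate 2) and those lost in LPS+LA against LPS from 1 to 2 (2 without LPS+LA replicate 2). The cause of these changes was not tested. Counts of at most 20 a library in Mmp9, at most 14 in Col27a1 outside LPS and LPS+HCl, and at most 25 in Tnc in control and LA limit what could be seen there.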
